A study of Mus musculus with 12 samples.

Results

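Gene expression in cultured mesenchymal stem cells (MSCs) from the bone marrow of old mice was compared with that in MSCs from young mice, both given vehicle only. The comparison used 6 of the 12 RNA sequencing libraries of the study, chosen because they share 1 deposited table: old vehicle replicates 2, 8 and 9 and young vehicle replicates 2, 4 and 5, so n = 3 libraries per group throughout. All share the tissue, the culture medium (DMEM with 10% serum) and the library protocol (BGISEQ500), and the labels give no strain, genotype, sex, passage or age in months. The rest of the study, other old vehicle libraries and old libraries given melatonin, lies in a second table and was used only to characterise the libraries. Nothing in the labels ties libraries to separate animals or cultures, and p-values here reflect only the spread between these libraries, which may be technical. Within a group, values are listed by replicate number. Levels are CPM, counts scaled by library size and TMM (a correction for library composition), and changes are log2 fold changes of old over young with their standard error (SE).

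Marrow MSCs, also called marrow stromal cells, are the adherent cells that can become osteoblasts, adipocytes or chondrocytes, and in the marrow they secrete Cxcl12 and Kitl, which retain and feed blood-forming cells. Cultures grown out by adherence can also carry marrow macrophages. Beyond their differentiation, stromal cells build and remodel matrix, signal to neighbours through guidance ligands such as ephrins, Slits and semaphorins, and meet the amino acid demand of collagen synthesis through the serine and proline pathways, which the transcription factor ATF4 controls.

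The libraries held 20595378 to 21309663 estimated counts each, and 15651 to 16774 of 18908 listed genes had a count. All 16 marrow stroma markers had counts in every library, with a summed level of 9080 to 18400 CPM in old and 14000 to 48700 CPM in young libraries. Of the niche genes, Cxcl12, the chemokine that holds blood stem cells in place, was at 677, 338 and 1197 CPM in old and 1112, 772 and 1077 CPM in young libraries, so the groups overlapped. Lepr, a receptor gene that marks perivascular stroma in the adult marrow, was at 25.7, 0.765 and 1.46 CPM in old and 0.232, 0.3105 and 0.354 CPM in young libraries, so old replicate 2 stood far above the other 5 libraries. All 20 macrophage markers had counts in every library, none of their defining genes was at 0, and their summed level was 1120, 22300 and 20400 CPM in old and 999, 76.5 and 170.0 CPM in young libraries. Old replicates 8 and 9 thus stood apart from old replicate 2, whose level was near that of young replicate 2. Of other cell types, the neutrophil and erythroid genes Ly6g, Elane and Hba-a1 and the T cell gene Cd3e had at most 6 counts in any library, and the endothelial genes Pecam1 and Cdh5 at most 49. Some other members of these lists stood apart in old replicate 8. The T and NK cell list summed to 111 CPM there, nearly all from Cd4 (110.5 CPM), and to at most 3.25 CPM elsewhere, and the endothelial gene Vwf was at 72.04 CPM there and at most 2.38 CPM elsewhere. The 12 endothelial markers summed to 36.0 to 85.9 CPM in old and 66.7 to 94.0 CPM in young libraries. Of only 5 tested, 2, Flt1 and Egfl7, were below every young library in every old library (40%, against 9.23% of all genes). None was separated the other way (0%, against 9.28%). The neutrophil list summed to 4.5, 27.2 and 25.2 CPM in old and 7.05, 3.73 and 2.98 CPM in young libraries, mostly from Csf3r in old replicates 8 and 9, the erythroid list to at most 5.82 CPM, and the B cell list to 66.6 to 129 CPM in old and 95.7 to 162 CPM in young libraries, nearly all from Ebf1, which stroma also expresses. The mast cell and megakaryocyte list summed to 37.8, 188 and 144 CPM in old and 60.4, 37.7 and 50.2 CPM in young libraries. Old replicates 8 and 9 were thus the highest for it. The pericyte list summed to 3780, 4980 and 2200 CPM in old and 2580, 1990 and 2140 CPM in young libraries. In bulk RNA, a larger share of a cell type and more RNA per cell of that type cannot be told apart.

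The 4 Y-linked genes measured summed to 7.81, 5.0 and 6.46 CPM in old replicates 2, 8 and 9, against 9.56, 7.5 and 171 CPM in young replicates 2, 4 and 5. Ddx3y and Eif2s3y had 1349 and 1308 counts in young replicate 5 and at most 8 in every other library, so young replicate 5 stood apart from the other 5. Uty had 718 counts in young replicate 5 and 94 to 190 in the other 5, where it made up most of the sum. Kdm5d had at most 8 counts in any library, young replicate 5 included. Each library was also closer to a library of the second table than to any in its own group. The log2 CPM of old replicates 2, 8 and 9 correlated across 13547 genes at r = 0.994, 0.993 and 0.979 with old vehicle replicates 1, 3 and 5 of that table, and those of young replicates 2, 4 and 5 at r = 0.99, 0.994 and 0.993 with old melatonin replicates 1, 3 and 5. Within the groups compared here, r ran from 0.869 to 0.942 among old and from 0.894 to 0.929 among young libraries. Whether libraries labelled young and old melatonin share a source, or carry each other's labels, cannot be told from the files, so every old over young value is a difference between libraries so labelled. The part of these library and marker differences in the results was not tested, and values without old replicates 8 and 9, without young replicate 5 or with a macrophage term stand beside many of the results that they move.

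**Figure D1:**
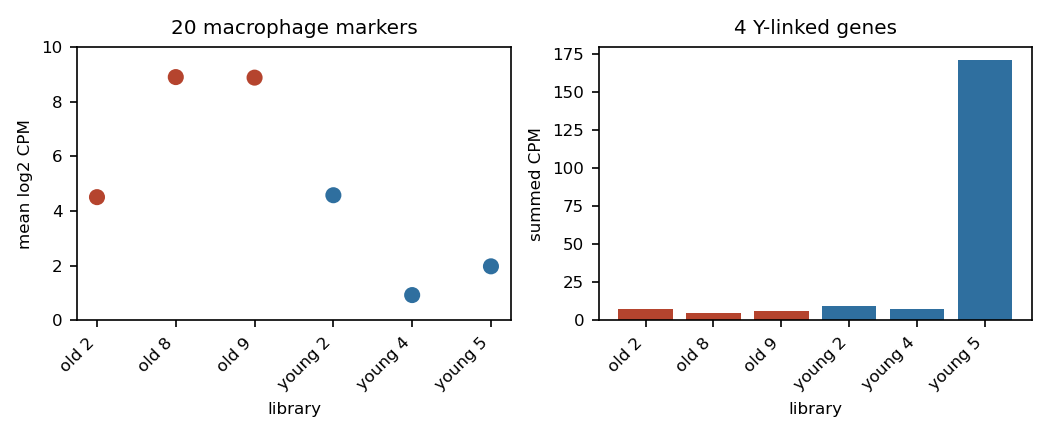
Mean log2 CPM of 20 macrophage markers (left) and summed CPM of 4 Y-linked genes (right) in each library, old in red and young in blue. Macrophage transcripts are high in old replicates 8 and 9 (8.9 and 8.88) and lowest in young replicate 4 (0.929), and Y-linked transcripts are high in young replicate 5 alone (171 CPM).

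Across all 13547 tested genes, the edgeR quasi-likelihood test with Benjamini-Hochberg adjustment called 0 genes higher and 0 lower in old libraries at an adjusted p under 0.05 (0% in each direction), and the smallest adjusted p was 0.315. At an unadjusted p under 0.05, 1194 genes were higher (8.81%) and 671 lower (4.95%). DESeq2 called 664 higher (4.9%) and 204 lower (1.51%), and limma-voom called 0. Every old library lay above every young library for 1257 genes (9.28%) and below every young library for 1250 (9.23%), and these are the genes whose groups do not overlap. Their split depended on scaling, since the TPM deposited by the authors gave 731 higher and 1911 lower, or 27.7% higher in place of 50.1%. On that scale the median of all genes was -0.15, against -0.03 on the CPM scale. With 3 libraries against 3, an exact two-sided permutation test of a single gene cannot go below p = 0.1. The genes below are therefore described by their levels and their separation, and the edgeR adjusted p was at least 0.315 for each. Changes given with the macrophage covariate are from the same edgeR fit with the mean log2 CPM of the 20 macrophage markers as a further term, which itself differed between the groups and can take up differences that go with age. Changes for old replicate 2 alone set this 1 library against the 3 young ones. Among genes of above-median level whose groups did not overlap, leaving aside macrophage, osteoblast and senescence markers, 678 were higher and 642 lower, and the genes with the widest separation below are those of this set.

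The widest separation among the genes of this set lower in old libraries was that of Crabp1 (gene identifier 12903), which encodes a cytoplasmic carrier of retinoic acid. Crabp1 was at 3.46, 1.84 and 1.31 CPM in old and 55.9, 95.97 and 628 CPM in young libraries, for a log2 fold change of -6.88 ± 1.21 (SE). All 3 old libraries were below every young library, and young replicate 5 was far above the other young ones; without it the change was -5.13, and old replicate 2 alone gave -6.23. Fbn2 (14119), the gene of fibrillin-2, a microfibril protein of developing elastic matrix, was at 2.27, 0.459 and 0.631 CPM in old and 48.96, 23.6 and 269.5 CPM in young libraries (log2 fold change -6.65 ± 1.29). Capn6 (12338), a calpain family member without protease activity, was at 3.98, 0.663 and 0.777 CPM in old and 86.2, 26.03 and 276 CPM in young libraries (log2 fold change -6.16 ± 1.25). For both genes the old libraries were nearly silent, the highest old value was in replicate 2 and the highest young value in replicate 5. Penk (18619), which encodes the precursor of the enkephalin opioid peptides, was at 4.69, 2.86 and 4.47 CPM in old and 72.7, 14.7 and 868 CPM in young libraries. Its log2 change was -6.31 ± 1.62, or -3.45 without young replicate 5, so this value moved most with that library. The old values of Penk differed little among themselves, whereas the young ones differed widely.

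Several further genes lower in old libraries differed less among young libraries, though Pear1 spread widely among old libraries and Pcdh10 in both groups. Tcf4 (21413), a basic helix-loop-helix factor that pairs with lineage regulators, was at 121, 74.5 and 113 CPM in old and 290.4, 276 and 308 CPM in young libraries. The young values were nearly equal, every old value was far below them, and the log2 change was -1.502 ± 0.23. Pear1, a receptor with repeats like those of epidermal growth factor, was at 11.4, 4.08 and 12.8 CPM in old and 58.8, 59.3 and 71.1 CPM in young libraries, with the lowest value in old replicate 8. Hopx, a small homeodomain protein that does not bind DNA, was at 4.17, 1.89 and 3.01 CPM in old and 18.98, 17.6 and 25.1 CPM in young libraries (log2 fold change -2.76 ± 0.38). The secreted glycoprotein gene Stc2 was at 1.66, 1.63 and 1.36 CPM in old and 6.87, 8.83 and 7.53 CPM in young libraries (log2 fold change -2.32 ± 0.301). Its 3 old values were almost the same and its change stayed between -2.398 and -2.201 when each library was left out in turn. Flrt3, whose membrane protein binds Unc5 receptors, was at 1.09, 1.58 and 0.971 CPM in old and 10.8, 6.34 and 7.17 CPM in young libraries (log2 fold change -2.73 ± 0.39). Pcdh10, a protocadherin of cell contacts, was at 0.521, 0.408 and 1.26 CPM in old and 8.96, 7.495 and 22.2 CPM in young libraries (log2 fold change -4.13 ± 0.69), with old values not far above the 0.142 to 0.153 CPM that 3 counts are worth. Both adhesion genes were separated without any overlap. Smaller separations were those of Nktr, a cyclophilin-related gene (log2 fold change -0.71 ± 0.14), Ppic, the cyclophilin C gene (-0.92 ± 0.19), and Hivep2, a zinc finger factor (-1.26 ± 0.25). Nktr was at 99.8, 96.4 and 95.4 CPM in old and 169.6, 158 and 150.4 CPM in young libraries, the narrowest spread in both groups of these 3 genes. Ppic was at 85.8, 78.2 and 83.02 CPM in old and 141, 132 and 193 CPM in young libraries. Hivep2 was at 17.7, 25.2 and 16.4 CPM in old and 51.9, 52.95 and 37.1 CPM in young libraries. DESeq2 called each gene of this and the preceding paragraph, with adjusted p from 2.61e-10 for Crabp1 to 0.00247 for Ppic. The calls add no support, since these genes were named for a wide separation or a small p, some by DESeq2 itself, in these libraries.

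Among the genes of this set higher in old libraries, the widest separation was that of Loxl2 (94352), a lysyl oxidase that crosslinks collagen, at 304, 257 and 166 CPM in old and 20.8, 14.6 and 2.48 CPM in young libraries. The lowest old value was in replicate 9 and the highest young value in replicate 2, and old replicate 2 alone against the young libraries gave a log2 change of 4.58. Efnb1 (13641), which encodes ephrin-B1, was at 199, 132 and 139 CPM in old and 46.5, 43.1 and 28.3 CPM in young libraries (log2 fold change 1.998 ± 0.27), with its highest value in old replicate 2. Gpx3, the secreted glutathione peroxidase, was at 1097, 376 and 2646 CPM in old and 142, 17.4 and 1.72 CPM in young libraries (log2 fold change 4.67 ± 1.65). The groups did not overlap, but both spread widely, with the lowest value in young replicate 5 and the highest in old replicate 9.

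Other secreted and cytoskeletal genes were higher in every old library. Crispld2, a secreted protein of the CAP family, was at 17.00, 18.9 and 33.1 CPM in old and 3.53, 1.597 and 1.97 CPM in young libraries (log2 fold change 3.28 ± 0.46). Myom1, which encodes a protein of the sarcomere M-band, was at 28.9, 24.6 and 14.1 CPM in old and 3.67, 1.95 and 2.98 CPM in young libraries (log2 fold change 2.98 ± 0.41). Its highest value was in old replicate 2, where macrophage transcripts were low. Synpo2, an actin-binding gene, was at 10.3, 8.57 and 9.95 CPM in old and 2.69, 1.55 and 1.57 CPM in young libraries (log2 fold change 2.31 ± 0.35). Sorbs2, an adaptor of actin and focal adhesions, was at 176, 122 and 187 CPM in old and 57.5, 22.4 and 39.5 CPM in young libraries (log2 fold change 2.02 ± 0.38). For both actin genes every old library was above every young one. Ackr4, an atypical receptor that scavenges chemokines, was at 19.5, 5.82 and 22.7 CPM in old and 1.16, 0.444 and 0.202 CPM in young libraries (log2 fold change 4.72 ± 0.85). Ackr4 was lowest among old libraries in replicate 8, one of those rich in macrophage transcripts. Emp3, a small membrane protein gene, was at 216, 256 and 214 CPM in old and 100.2, 111 and 116 CPM in young libraries, the smallest log2 change of this group (1.07 ± 0.16) and one of the most even. Prdx6, a peroxiredoxin, was at 344, 260.5 and 409.9 CPM in old and 124, 70.8 and 102 CPM in young libraries. Its groups did not overlap, and its change was 1.798 in old replicate 2 alone.

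For a further set the level was higher in old replicates 8 and 9 than in old replicate 2, as it was for macrophage transcripts. Trf, the transferrin gene, was at 24.5, 167 and 118 CPM in old and 6.13, 0.577 and 1.16 CPM in young libraries, and its log2 change was 5.29 ± 1.19, or 3.23 in old replicate 2 alone and 2.15 with the macrophage covariate. Glipr1, of the CAP family, was at 109, 202 and 220.5 CPM in old and 18.01, 9.402 and 3.18 CPM in young libraries (4.12 ± 0.69, or 2.85 with the covariate). Slc25a45, of the mitochondrial carrier family, was at 15.01, 35.2 and 40.6 CPM in old and 2.65, 0.665 and 1.06 CPM in young libraries (4.37 ± 0.69, or 2.597 with the covariate). All 3 were lowest among old libraries in replicate 2. The kinase gene Mylk, which activates smooth muscle myosin, and Ugt1a7c, a glucuronosyltransferase, had smaller changes in old replicate 2 alone (1.26 and 1.19) than in all libraries (2.81 ± 0.54 and 2.44 ± 0.45). Ehd3, an ATPase of endocytic recycling, was at 50.8, 35.4 and 114 CPM in old and 12.7, 10.9 and 2.78 CPM in young libraries (2.92 ± 0.71), without following the macrophage order. Ifi204, an interferon-inducible gene, was at 121, 135 and 166 CPM in old and 63.5, 41.7 and 60.3 CPM in young libraries (1.35 ± 0.23, or 0.898 with the covariate). Ugt1a7c and Ifi204 have close paralogs, among which the counting could have split reads, so their values are uncertain. For 37 genes chosen for their small p or wide separation, the choice of separated genes fixes the sign in every old library. The difference was smaller in old replicate 2 than in the mean of old replicates 8 and 9 for 11 of the 19 higher and 13 of the 18 lower genes.

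**Figure D2:**
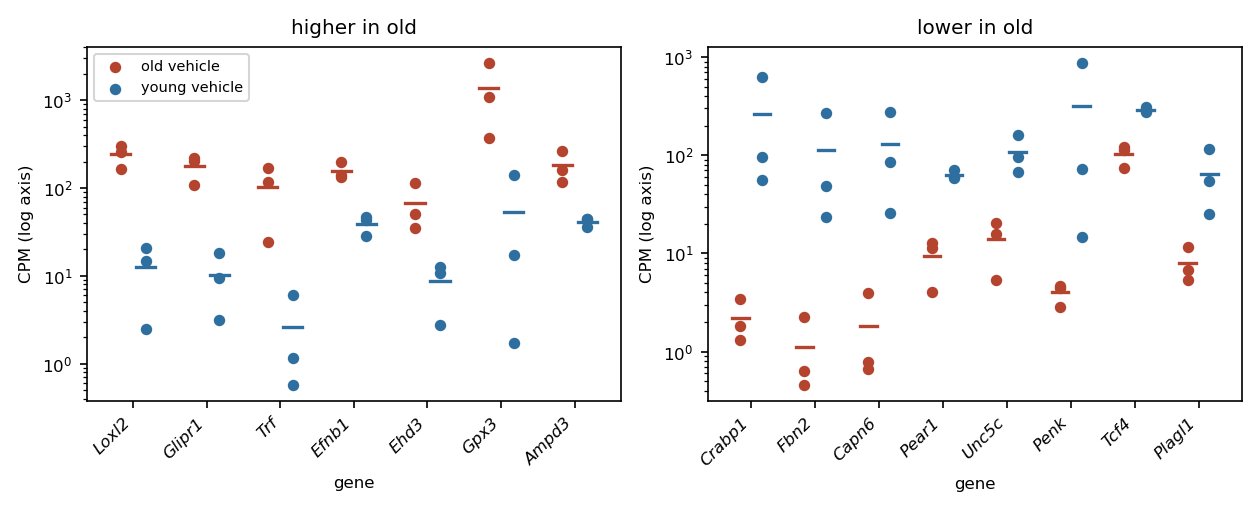
CPM on a log axis of genes with the widest separation in each direction (7 higher and 8 lower in old), among separated genes of above-median level outside the macrophage, osteoblast and senescence lists, old libraries in red left of young libraries in blue, with bars at the group means. By that choice each gene's 3 old points lie wholly above (left panel) or below (right panel) its 3 young points, and the highest young values of Crabp1 and Penk are 628 and 868 CPM.

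**Figure D3:**
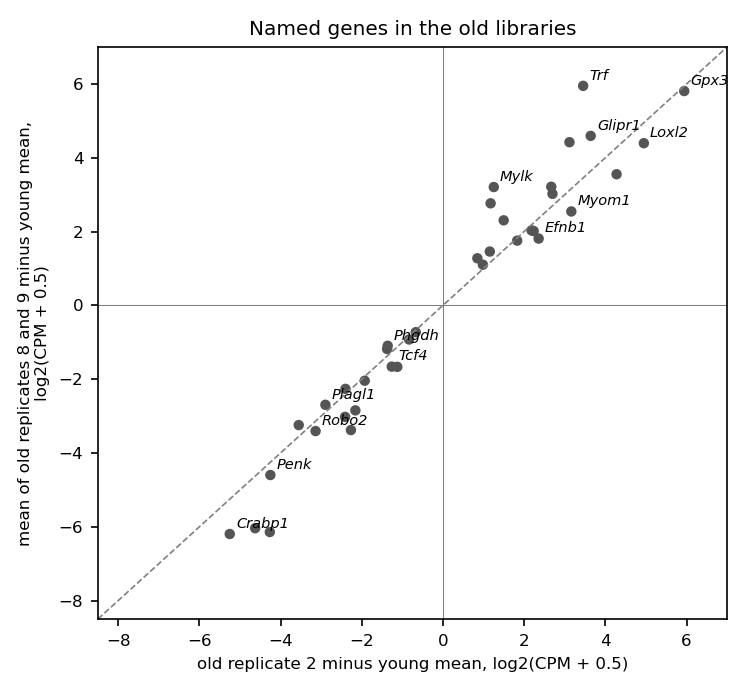
Difference from the young mean in old replicate 2 (horizontal) against that in the mean of old replicates 8 and 9 (vertical), as log2 of CPM plus 0.5, for the 37 genes, with a dashed line of equality and some genes named. The choice of separated genes puts the 37 points in the upper right or lower left quadrant, and Trf and Mylk lie above the line.

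Serine synthesis, one-carbon and ATF4-regulated genes were lower in old libraries. Of 37 list members, all tested, 32 were lower and 5 higher, with a median log2 change of -0.65 against -0.03 over all genes. Every old library was below every young library for 12 of them, 32.4% against 9.23% of all genes, and 0 were separated the other way, against 9.28%. At an unadjusted p under 0.05, 14 were lower (37.8%, against 4.95% of all genes) and 0 higher (against 8.81%), and DESeq2 called 6 lower (16.2%, against 1.51%). Averaged over the list, log2 CPM was 5.27, 5.51 and 5.18 in old and 6.07, 5.57 and 6.43 in young libraries, so young replicate 4 was only just above old replicate 8. The macrophage markers averaged 4.51, 8.9 and 8.88 in old and 4.58, 0.93 and 1.98 in young libraries, another order. The part of macrophage transcripts in the list's change was not tested. The list's median was -0.79 in old replicate 2 alone and -0.86 with the macrophage covariate. It was -0.54 without young replicate 5 and -0.65 on the TPM scale relative to all genes.

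Within the list, 2 of the 3 enzymes of serine synthesis itself were separated. Phgdh (236539), the first enzyme of serine synthesis from glycolysis, was at 93.5, 115 and 110.0 CPM in old and 245, 211 and 270.0 CPM in young libraries. The groups were far apart and each was narrow, with a log2 change of -1.19 ± 0.18. Psat1, the second enzyme, was at 99.4, 104 and 49.1 CPM in old and 195, 207 and 268 CPM in young libraries (log2 fold change -1.41 ± 0.33), again without overlap. Psph, which completes the pathway, was at 16.1, 26.2 and 20.2 CPM in old and 30.1, 21.02 and 25.7 CPM in young libraries, and its groups overlapped (-0.299 ± 0.26). Downstream, Cth, which makes cysteine from cystathionine, was at 2.46, 5.15 and 3.399 CPM in old and 13.00, 10.6 and 9.700 CPM in young libraries (log2 fold change -1.59 ± 0.36). Asns, the asparagine synthetase gene, was at 84.04, 96.6 and 73.8 CPM in old and 154, 112 and 197 CPM in young libraries (log2 fold change -0.86 ± 0.25). Both were separated, and Cth was lowest in old replicate 2. The other members without overlap were named after their values were seen. Slc7a5, an importer of large neutral amino acids, was at 60.1, 102 and 39.8 CPM in old and 178, 145 and 432 CPM in young libraries (log2 fold change -1.91 ± 0.55). Aldh1l2, a mitochondrial enzyme that oxidises formyl-tetrahydrofolate, was at 27.03, 30.00 and 9.81 CPM in old and 126, 35.3 and 250.4 CPM in young libraries (log2 fold change -2.62 ± 0.78). Young replicate 4 was the lowest young library for both. Aldh18a1, the first enzyme of proline synthesis, differed by -1.13 ± 0.34, and Shmt2, which moves a carbon from serine to folate in mitochondria, by -0.66 ± 0.26. The gene of ATF4 itself was at 211, 213 and 193 CPM in old and 304, 249 and 398 CPM in young libraries, for a log2 fold change of -0.62 ± 0.22. Its groups did not overlap, and its change was smaller than those of Chac1 (-1.59 ± 0.496), a glutathione-degrading enzyme induced by ATF4, and Slc7a3 (-1.15 ± 0.44, or -1.82 with the covariate), a cationic amino acid importer. The aminoacyl-tRNA synthetase gene Gars differed by -0.41 ± 0.19.

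Several ATF4 targets varied widely among young libraries. Trib3, a pseudokinase that ATF4 induces, was at 8.38, 18.8 and 12.5 CPM in old and 42.6, 7.89 and 156 CPM in young libraries, so young replicate 4 was below every old library and young replicate 5 far above. Ddit3, which encodes the stress factor CHOP, was at 31.8, 44.9 and 38.8 CPM in old and 89.6, 38.1 and 101 CPM in young libraries, with the same low young library. Pycr1, the last enzyme of proline synthesis, was at 18.4, 17.1 and 16.6 CPM in old and 44.7, 13.2 and 109.7 CPM in young libraries. The 3 genes thus overlapped between groups through young replicate 4. Slc7a11, the cystine importer, was at 3.08, 11.7 and 17.1 CPM in old and 14.6, 7.096 and 7.12 CPM in young libraries. It was low in old replicate 2 and not in the other old libraries. The folate enzyme genes Tyms and Mthfd1 overlapped, with log2 changes of -0.47 ± 0.45 and -0.16 ± 0.34.

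**Figure D4:**
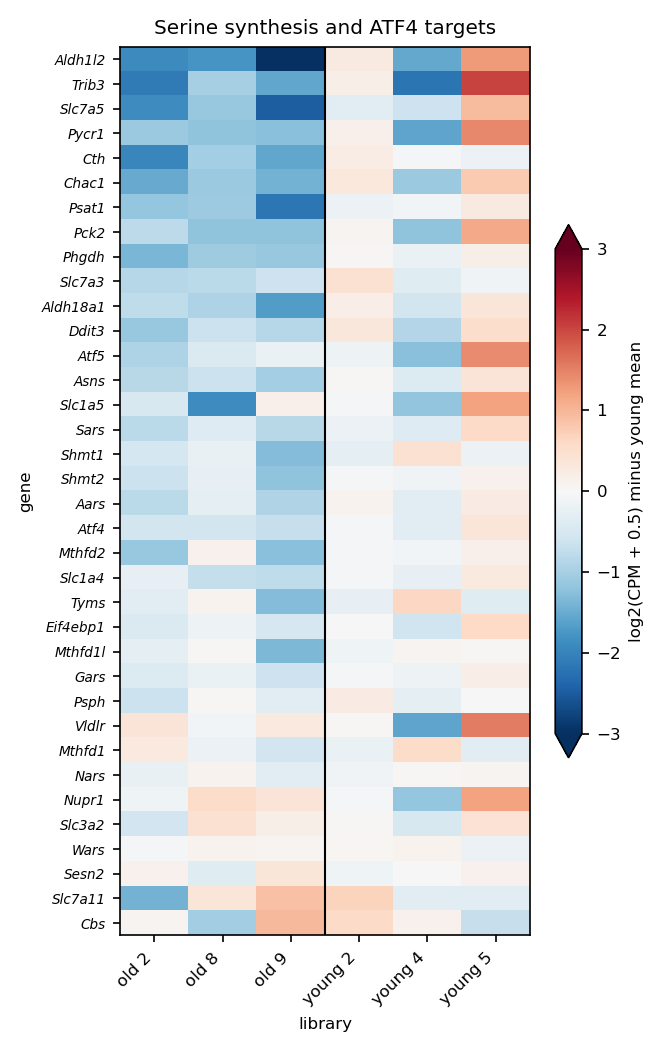
Heat map of 36 serine, one-carbon and ATF4 genes (rows, ordered by log2 change) in 6 libraries (columns, old left of the line and young right of it), coloured by the difference of log2(CPM + 0.5) from the young mean, with colours capped at -3 and 3. Blue fills most upper rows in all 3 old libraries, while young replicate 4 is also blue and young replicate 5 red in several ATF4 targets such as Trib3.

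The promoters of ATF4 targets carry a composite element bound by ATF4 with a C/EBP partner, written here as TGATGNAA on either strand. RefSeq promoters (GRCm38.p6, 250 bases before to 50 after the start) were matched for 28 of the 37 members. Of the 28, 11 held the element (39.3%), against 4.51% of 27025 genes with a promoter and 2.79% of tested genes with one. The list was made to take in ATF4 targets, so the higher share follows from that choice and says nothing on old against young libraries. Of the members that held it 10 of 11 were lower in old libraries (median log2 change -0.65), and of those that did not, 14 of 17 (median -0.62). A match is a description of letters and not a binding site. The promoters of the 4 holders with the smallest p are shown 5′ to 3′ on the strand of the gene, with the matches in capitals, to place the element relative to the start.
Asns, chr6:7693160-7693459, minus strand: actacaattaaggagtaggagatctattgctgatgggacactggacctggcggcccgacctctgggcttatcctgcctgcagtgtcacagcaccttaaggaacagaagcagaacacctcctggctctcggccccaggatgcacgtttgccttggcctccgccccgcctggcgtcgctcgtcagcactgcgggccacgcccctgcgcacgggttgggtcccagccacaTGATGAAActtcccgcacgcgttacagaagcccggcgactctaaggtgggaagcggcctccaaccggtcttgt
Chac1, chr2:119350992-119351291, plus strand: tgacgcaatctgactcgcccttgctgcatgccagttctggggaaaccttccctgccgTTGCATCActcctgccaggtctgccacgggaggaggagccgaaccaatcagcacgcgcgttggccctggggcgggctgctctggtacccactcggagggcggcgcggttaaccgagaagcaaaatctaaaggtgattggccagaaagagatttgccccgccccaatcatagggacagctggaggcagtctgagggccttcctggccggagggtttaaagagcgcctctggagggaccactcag
Slc1a4, chr11:20332664-20332963, minus strand: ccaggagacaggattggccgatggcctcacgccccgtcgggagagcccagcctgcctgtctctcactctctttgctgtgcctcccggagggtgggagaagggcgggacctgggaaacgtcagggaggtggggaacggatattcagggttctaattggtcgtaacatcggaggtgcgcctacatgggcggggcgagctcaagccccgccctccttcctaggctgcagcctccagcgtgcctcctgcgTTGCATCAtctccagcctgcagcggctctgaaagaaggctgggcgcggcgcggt
Aars, chr8:111033592-111033891, plus strand: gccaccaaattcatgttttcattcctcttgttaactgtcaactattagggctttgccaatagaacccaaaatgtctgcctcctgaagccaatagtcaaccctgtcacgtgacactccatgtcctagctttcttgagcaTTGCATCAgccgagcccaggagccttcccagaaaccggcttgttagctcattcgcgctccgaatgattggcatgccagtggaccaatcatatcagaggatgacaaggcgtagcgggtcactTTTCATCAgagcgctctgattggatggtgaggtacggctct
Counted from -1 just before the start, the first base of the element lay at -23 in Asns, at -193 in Chac1 and at -4 in Slc1a4. Slc1a4, a neutral amino acid transporter, was at 74.8, 53.9 and 52.05 CPM in old and 86.3, 74.3 and 109 CPM in young libraries. Aars, the alanyl-tRNA synthetase gene, held 2 matches and was at 205, 298 and 192 CPM in old and 383, 282 and 428 CPM in young libraries. The groups of both overlapped by a narrow margin.

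Genes of ephrin signalling, in which ligands and Eph receptors on touching cells meet, were mostly lower in old libraries. Of 19 tested ephrin and Eph receptor genes, 16 were lower and 3 higher in old libraries, with a median log2 change of -0.53, -0.29 in old replicate 2 alone and -0.93 without that library. The groups did not overlap for 1 higher (5.26%, against 9.28% of all genes) and 3 lower members (15.8%, against 9.23%). The higher one was the ligand gene Efnb1, described above. Of the receptors, Epha7 was at 1.09, 0.408 and 1.65 CPM in old and 8.26, 4.04 and 23.4 CPM in young libraries (log2 fold change -3.49 ± 0.85), without overlap. Ephb3, a receptor of B-type ephrins, was at 35.04, 10.4 and 11.9 CPM in old and 69.2, 32.4 and 116 CPM in young libraries (-1.92 ± 0.66, or -1.06 with the covariate), and old replicate 2 lay just above young replicate 4. Epha4, which binds ephrins of both types, was at 7.01, 3.62 and 5.49 CPM in old and 15.5, 18.01 and 6.67 CPM in young libraries (-1.32 ± 0.47). The values of Epha4 overlapped through young replicate 5. Ephb4 and Ephb6 differed by -0.92 ± 0.37 and -1.65 ± 0.69, while Ephb2, Epha2 and the ligand gene Efnb2 overlapped with changes of -0.42 ± 0.49, 0.42 ± 0.35 and -0.47 ± 0.42.

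The Slit, netrin and semaphorin list was balanced, with 19 of 38 tested members higher and 19 lower (median log2 change -0.05). In it 5 were separated upward (13.2%, against 9.28% of all genes) and 7 downward (18.4%, against 9.23%). Slit2, a secreted repellent, was at 59.2, 36.1 and 45.5 CPM in old and 127, 106 and 161 CPM in young libraries. Its receptor gene Robo2 was at 1.42, 0.867 and 1.36 CPM in old and 12.8, 10.6 and 32.03 CPM in young libraries, for a log2 fold change of -3.92 ± 0.56. Ligand and receptor were thus both lower in every old library, and their changes were -1.15 and -3.69 in old replicate 2 alone. Unc5c, a netrin receptor, was at 20.6, 15.9 and 5.29 CPM in old and 66.8, 95.8 and 161 CPM in young libraries (-2.95 ± 0.59, or -1.90 with the macrophage covariate). Of the semaphorins, Sema6a was at 2.23, 3.32 and 4.51 CPM in old and 11.4, 6.08 and 11.7 CPM in young libraries (-1.54 ± 0.42, or -2.48 with the covariate). Both were separated without overlap. Genes of this list separated the other way, named after their values were seen, were Sema4d, Sema6b, Sema6d, Nrp2 and Slit1. Sema4d, a semaphorin of immune cells, was at 4.403, 31.4 and 52.5 CPM in old and 3.71, 0.355 and 0.859 CPM in young libraries, and its change of 4.16 ± 1.22 was 0.31 with the macrophage covariate. Nrp2, a co-receptor of class 3 semaphorins, was at 233, 405 and 205 CPM in old and 119.6, 142 and 35.4 CPM in young libraries (1.503 ± 0.55, or 1.21 with the covariate).

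Mesenchymal transcription factors leaned downward. Of 42 tested members, 26 were lower and 16 higher in old libraries (median log2 change -0.32, -0.13 in old replicate 2 alone, -0.087 without old replicate 8 and -0.71 without old replicate 2), with 8 separated downward (19%, against 9.23% of all genes) and 1 upward (2.38%, against 9.28%). Next to Tcf4, the tendon factor gene Scx was at 3.83, 3.57 and 4.95 CPM in old and 43.95, 10.7 and 49.00 CPM in young libraries, for a log2 fold change of -3.07 ± 0.599. The old values of Scx were nearly equal, and young replicate 4 was the closest to them. Klf5, a zinc finger factor of growth and remodelling, was at 1.75, 3.11 and 2.19 CPM in old and 3.99, 16.7 and 17.9 CPM in young libraries (-2.45 ± 0.63). Tbx18, a T-box factor of perivascular mesenchyme, was at 30.2, 17.4 and 16.6 CPM in old and 50.8, 45.99 and 40.4 CPM in young libraries (-1.09 ± 0.28, or -0.599 in old replicate 2 alone). The partner E proteins Tcf12 and Tcf3, named after their values were seen, had smaller changes of -0.91 ± 0.29 and -0.71 ± 0.25, or -0.35 and -0.16 with the macrophage covariate. The closely related repressors Zeb1 and Zeb2 differed in direction, with Zeb1 at 120.2, 59.1 and 54.6 CPM in old and 147, 132 and 240.4 CPM in young libraries and Zeb2, which macrophages also express, at 118, 213 and 207 CPM in old and 79.6, 82.4 and 36.4 CPM in young libraries. Both were separated, in opposite directions, with changes of -1.15 ± 0.398 and 1.44 ± 0.39, or -0.38 and 0.73 with the covariate.

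Of 28 tested Hox genes, the positional regulators of the body axis and limbs, 23 were lower and 5 higher (median log2 change -0.70). This value rested on the libraries chosen, since it was -0.04 without young replicate 2, -0.32 in old replicate 2 alone and -0.17 by limma-voom. The groups did not overlap for 2 lower (7.14%, against 9.23% of all genes) and 1 higher member (3.57%, against 9.28%). Hoxd9 was at 3.17, 0.714 and 0.825 CPM in old and 1.07, 7.81 and 33.1 CPM in young libraries (-3.15 ± 1.28), and Hoxd4 at 0.521, 0.204 and 0.583 CPM in old and 0.603, 1.15 and 16.5 CPM in young libraries (-3.78 ± 1.397). Both D-cluster genes were highest in young replicate 5, without which their changes were -1.53 and -1.03. Hoxa9 was at 23.5, 11.3 and 11.8 CPM in old and 28.3, 19.6 and 31.4 CPM in young libraries and overlapped.

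Imprinted genes, which are expressed from 1 parental allele and many of which act in growth, did not lean one way. Of 27 tested, 12 were higher and 15 lower (median log2 change -0.17, or 0.014 with the macrophage covariate). Of these, 3 were separated upward (11.1%, against 9.28% of all genes) and 4 downward (14.8%, against 9.23%). Plagl1, a zinc finger regulator of other imprinted genes, was at 6.82, 5.31 and 11.7 CPM in old and 54.4, 24.9 and 115 CPM in young libraries, for a log2 fold change of -3.03 ± 0.63. Slc38a4, an amino acid transporter, was at 0.663, 0.714 and 0.291 CPM in old and 9.75, 3.06 and 84.7 CPM in young libraries (-5.85 ± 1.42, or -3.52 without young replicate 5). Both were lower in every old library. Gatm, which makes the precursor of creatine, was at 0.7102, 7.35 and 6.07 CPM in old and 0.6498, 0.355 and 0.152 CPM in young libraries, and old replicate 2 was level with young replicate 2. Igf2, a fetal growth factor, was at 77.7, 16.1 and 76.5 CPM in old and 34.2, 3.02 and 2.17 CPM in young libraries. Dlk1, an inhibitor of adipocyte formation, was at 132, 19.2 and 15.3 CPM in old and 25.2, 87.4 and 50.6 CPM in young libraries, and its change of 0.029 ± 0.92 is smaller than its error. The values of Igf2 and Dlk1 overlapped between groups. H19 and Meg3 were not analysed here.

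Purine genes separated in 1 direction. Of 28 tested, 16 were higher and 12 lower (median log2 change 0.10, or -0.05 on the TPM scale), with 6 separated upward (21.4%, against 9.28% of all genes) and 0 downward (0%, against 9.23%). Ampd3, which deaminates AMP to IMP, was at 117, 161 and 264 CPM in old and 44.3, 43.95 and 36.2 CPM in young libraries, with 1.497 in old replicate 2 alone and 1.42 with the macrophage covariate. Gda, which deaminates guanine, was at 41.9, 332 and 135 CPM in old and 18.9, 10.9 and 2.83 CPM in young libraries (3.96 ± 1.002, or 1.41 with the covariate). Entpd1, the CD39 ectoenzyme that degrades extracellular ATP and that macrophages carry, was at 8.38, 63.3 and 61.8 CPM in old and 5.38, 1.197 and 0.404 CPM in young libraries (4.25 ± 1.199, or 0.91 with the covariate). All 3 were lower in old replicate 2 than in replicates 8 and 9, and above every young library. Xdh, which makes uric acid, was at 206, 335 and 342 CPM in old and 86.7, 15.9 and 142 CPM in young libraries (1.85 ± 0.74, or 0.88 with the covariate), and Samhd1, a hydrolase of deoxynucleotides, at 159.6, 176 and 265 CPM in old and 159.5, 115 and 122 CPM in young libraries (0.598 ± 0.26, or 0.025 with the covariate). Old replicate 2 and young replicate 2 were nearly equal for Samhd1. The last of the 6, Alpl, whose phosphatase also acts on AMP, was lowest among old libraries in replicate 8.

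Splicing factors were slightly lower in old libraries. Of 59 members, all tested, 51 were lower and 8 higher in old libraries (median log2 change -0.24, or -0.23 on the TPM scale relative to all genes), with 10 separated downward (16.9%, against 9.23%) and 0 upward (against 9.28%). The median was -0.20 in old replicate 2 alone and 0.02 with the macrophage covariate. Averaged over the list, log2 CPM was 7.07, 7.17 and 6.93 in old and 7.06, 7.38 and 7.38 in young libraries, so young replicate 2 lay within the old range. Ptbp2, a repressor of neural exons, was at 14.9, 15.4 and 13.4 CPM in old and 23.1, 28.7 and 27.9 CPM in young libraries, for a log2 fold change of -0.87 ± 0.196. Luc7l2, which associates with the U1 particle, was at 202, 179 and 160.5 CPM in old and 258, 256 and 263 CPM in young libraries (-0.52 ± 0.16, or -0.34 with the covariate). DESeq2 called these 2 members (3.39%, against 1.51% of all genes), with adjusted p = 0.00233 and 0.0446. Srsf11, a serine and arginine rich factor, was at 133, 154 and 148 CPM in old and 179, 201 and 191 CPM in young libraries (-0.39 ± 0.15), and Hnrnph3 at 12.5, 11.5 and 13.4 CPM in old and 17.6, 20.3 and 17.98 CPM in young libraries (-0.58 ± 0.202). The changes were under 1 on the log2 scale in each of the 4, with little spread within groups.

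Prostaglandin and sphingolipid genes leaned upward, with their highest mean levels in the libraries rich in macrophage transcripts. Averaged over the prostaglandin list, log2 CPM was 3.91, 4.86 and 4.81 in old and 3.76, 3.24 and 3.36 in young libraries, and that of the sphingolipid list 6.24, 6.72 and 6.6 in old and 6.25, 5.95 and 5.61 in young libraries. Of 29 tested prostaglandin, leukotriene and phospholipase genes, 22 were higher (median log2 change 0.69, or 0.003 with the macrophage covariate). In this list 4 were separated upward (13.8%, against 9.28% of all genes) and 0 downward (against 9.23%). Hpgds, the hematopoietic prostaglandin D synthase, was at 5.21, 90.4 and 67.6 CPM in old and 3.43, 0.266 and 0.808 CPM in young libraries (5.17 ± 1.38, or 0.61 with the covariate). Alox5ap, which presents arachidonic acid to lipoxygenase, was at 10.5, 479.9 and 167 CPM in old and 9.004, 1.15 and 4.799 CPM in young libraries (5.46 ± 1.50, or -0.23 with the covariate). Old replicate 2 was close to young replicate 2 for both. Ptgs2, the inducible cyclooxygenase, was at 21.2, 116 and 49.6 CPM in old and 52.4, 72.6 and 26.4 CPM in young libraries, so the groups overlapped. Of 35 tested sphingolipid and ganglioside genes, 28 were higher (median 0.44, or 0.001 with the covariate), with 4 separated upward (11.4%, against 9.28%) and 0 downward (against 9.23%). Degs1, which makes ceramide from dihydroceramide, was at 307, 301 and 311 CPM in old and 243, 205 and 136 CPM in young libraries (0.65 ± 0.24, or 0.43 without young replicate 5) and did not follow the macrophage order. S1pr1, a receptor of sphingosine 1-phosphate, was at 13.5, 57.4 and 77.9 CPM in old and 11.9, 4.701 and 1.47 CPM in young libraries (3.04 ± 0.94, or 0.45 with the covariate). St3gal5, which makes the ganglioside GM3, was at 52.8, 169 and 233 CPM in old and 55.7, 45.95 and 24.9 CPM in young libraries, and old replicate 2 lay within the young range.

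Of the 21 pathway lists, endosomal genes had the highest share of members separated upward on the CPM scale, but not on the TPM scale. Of 51 tested, 37 were higher (median log2 change 0.22, or 0.09 in old replicate 2 alone and 0.06 with the covariate), with 15 separated upward (29.4%, against 9.28%) and 1 downward (1.96%, against 9.23%). On the TPM scale 7 were separated upward (13.7%, against 17.9% of purine and 17.6% of retinoid genes) and 4 downward (7.84%). Of all 13547 genes, 731 were separated upward and 1911 downward on that scale. The count and its rank thus rested on scaling. Rab32, which directs cargo to lysosome-related organelles, was at 100.1, 126 and 144 CPM in old and 60.7, 60.3 and 46.4 CPM in young libraries (1.15 ± 0.21). Rab7b, of the late endosome to Golgi route, was at 42.4, 77.5 and 98.4 CPM in old and 27.2, 21.3 and 35.1 CPM in young libraries (1.38 ± 0.36). Rab5c, of early endosomes, was at 250.1, 398 and 385 CPM in old and 173, 213 and 170.0 CPM in young libraries (0.895 ± 0.24). All 3 were higher in old replicates 8 and 9 than in replicate 2, with changes of 0.84, 0.61 and 0.43 in old replicate 2 alone. Rab20, of the phagosome, was at 8.29, 20.4 and 14.2 CPM in old and 5.43, 5.100 and 3.23 CPM in young libraries.

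Retinoid genes went both ways. Of 17 tested, 11 were higher and 6 lower (median log2 change 0.61, or 0.12 with the covariate). Of these, 4 were separated upward (23.5%, against 9.28% of all genes) and 2 downward (11.8%, against 9.23%). Against the carrier gene Crabp1, Dhrs3, which reduces retinaldehyde to retinol, was at 50.7, 175 and 154 CPM in old and 43.4, 11.04 and 19.8 CPM in young libraries (2.36 ± 0.67, or 0.25 with the covariate). Bco2, which cleaves carotenoids, was at 0.616, 8.27 and 2.09 CPM in old and 0.232, 0.266 and 0.202 CPM in young libraries, with 1 old library well above the rest. Rarres2, which encodes the adipokine chemerin, was at 2.46, 2.25 and 8.21 CPM in old and 1.58, 0.355 and 1.36 CPM in young libraries (1.97 ± 0.79, or 0.51 with the covariate). Of 46 tested aldehyde and xenobiotic genes, 28 were higher (median 0.27, or 0.092 with the covariate), with 9 separated upward (19.6%, against 9.28%) and 1 downward (2.17%, against 9.23%). Aldh2, the mitochondrial aldehyde dehydrogenase, was at 356, 669.8 and 562 CPM in old and 199, 198 and 240.4 CPM in young libraries (1.32 ± 0.27, or 0.74 in old replicate 2 alone). Gsta3, a glutathione transferase with close paralogs, was at 2.84, 36.5 and 20.1 CPM in old and 2.09, 0.577 and 0.354 CPM in young libraries, and Aldh3b1 at 26.5, 90.9 and 59.6 CPM in old and 21.9, 13.5 and 25.8 CPM in young libraries. In Gsta3 and Aldh3b1 old replicate 2 lay close to the highest young library, and their changes of 4.29 ± 1.14 and 1.53 ± 0.49 were 0.601 and 0.036 with the covariate. Fatty acid oxidation and peroxisome genes were balanced, with 27 of 51 higher (median 0.01), 8 separated upward (15.7%, against 9.28%) and 1 downward (1.96%, against 9.23%). The peroxisomal members Cat, the catalase gene, and Acox3, an acyl-CoA oxidase, had changes of 1.45 ± 0.43 and 1.08 ± 0.37, or 0.18 and 0.18 with the covariate. Pex7, an import receptor of peroxisomes, was at 17.3, 20.5 and 19.03 CPM in old and 11.8, 13.3 and 10.4 CPM in young libraries (0.68 ± 0.21, or 0.59 with the covariate).

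Matrix glycan genes leaned little. Of 28 tested hyaluronan and chondroitin sulfate genes, 13 were higher and 15 lower (median log2 change -0.14). In this list 3 were separated upward (10.7%, against 9.28% of all genes) and 5 downward (17.9%, against 9.23%). Has1, a hyaluronan synthase, was at 12.3, 12.04 and 12.2 CPM in old and 19.7, 24.5 and 18.4 CPM in young libraries, with nearly equal old values (-0.78 ± 0.21). Has2, the main synthase of stroma, was at 43.04, 19.2 and 16.1 CPM in old and 27.4, 112 and 1.77 CPM in young libraries and overlapped. Cspg4, the NG2 proteoglycan of pericytes, was at 35.5, 20.4 and 23.3 CPM in old and 47.1, 75.8 and 181 CPM in young libraries (-1.94 ± 0.54, or -0.85 with the covariate). Stab1, a scavenger receptor of hyaluronan on macrophages, was at 67.6, 326 and 1211 CPM in old and 54.4, 1.996 and 11.5 CPM in young libraries (4.56 ± 1.55, or 0.33 with the covariate). Of 26 tested heparan sulfate genes, 10 were higher and 16 lower (median -0.27), with 2 separated each way (7.69%, against 9.28% upward and 9.23% downward). Sulf1, an extracellular sulfatase that edits heparan sulfate, was at 75.6, 84.1 and 114 CPM in old and 192, 286 and 119.8 CPM in young libraries (-1.13 ± 0.35). Hspg2, the perlecan gene of basement membranes, was at 1188, 674 and 930.2 CPM in old and 1606, 1190.0 and 2063 CPM in young libraries (-0.799 ± 0.32, or -0.49 with the covariate). The syndecan gene Sdc3 went the other way, at 288, 749 and 522 CPM in old and 220.4, 257 and 105 CPM in young libraries (1.42 ± 0.47, or 0.54 with the covariate). Of 46 tested nucleotide sugar and glycosyltransferase genes, 29 were higher (median 0.20, or 0.074 with the covariate), with 7 separated upward (15.2%, against 9.28%) and 5 downward (10.9%, against 9.23%). Galnt1, which starts O-linked glycans, was at 191, 154 and 157 CPM in old and 95.3, 122 and 90.2 CPM in young libraries (0.703 ± 0.19, or 1.05 with the covariate). Galnt6, of the same family, was at 1.704, 110.1 and 25.2 CPM in old and 1.25, 0.3105 and 0.303 CPM in young libraries (6.18 ± 1.61, or 0.35 with the covariate). Mgat5, which branches N-linked glycans, was at 45.8, 144 and 109 CPM in old and 33.6, 39.9 and 19.4 CPM in young libraries (1.69 ± 0.48, or 0.55 with the covariate). Galnt1 was highest in old replicate 2, and Galnt6 in old replicate 8.

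Of 25 tested plasminogen and serpin genes, 15 were higher and 10 lower (median log2 change 0.17, or 0.37 with the covariate). In this list 4 were separated each way (16%, against 9.28% of all genes upward and 9.23% downward). F3, the tissue factor that starts coagulation, was at 176, 94.8 and 71.5 CPM in old and 209, 278 and 210.1 CPM in young libraries (-1.02 ± 0.36, or -0.17 with the covariate). F2rl1, a receptor that proteases activate, was at 0.663, 0.255 and 0.728 CPM in old and 1.67, 3.77 and 12.7 CPM in young libraries (-3.44 ± 0.897, or -2.17 with the covariate). Serpinb6a, an intracellular protease inhibitor, was at 700.3, 629.5 and 627 CPM in old and 402, 447 and 332 CPM in young libraries (0.73 ± 0.19, or 0.87 with the covariate). The first pair was lower in every old library and the inhibitor higher. Of 38 tested channel genes, 16 were higher and 22 lower (median -0.15, or 0.021 with the covariate), with 5 separated upward (13.2%, against 9.28%) and 4 downward (10.5%, against 9.23%). Trpv4, a calcium channel that senses stretch, was at 9.23, 38.1 and 21.3 CPM in old and 2.74, 3.46 and 1.21 CPM in young libraries (3.21 ± 0.66, or 1.88 with the covariate). Scn3a, a voltage-gated sodium channel, was at 3.03, 1.28 and 0.291 CPM in old and 14.8, 15.2 and 23.1 CPM in young libraries (-3.52 ± 0.81, or -2.31 with the covariate). Trpv2 and the store-operated channel gene Orai1 had changes of 3.499 ± 0.82 and 1.64 ± 0.48, or 0.98 and 0.35 with the covariate. Of 43 tested G protein and cAMP genes, 25 were higher (median 0.19, or -0.21 with the covariate), with 5 separated upward (11.6%, against 9.28%) and 2 downward (4.65%, against 9.23%). Adcy5, an adenylate cyclase, was at 8.901, 3.16 and 4.56 CPM in old and 1.76, 0.7096 and 0.354 CPM in young libraries (2.55 ± 0.73), with its highest value in old replicate 2. Rgs14, which shortens G protein signals, was at 0.994, 18.4 and 11.5 CPM in old and 0.789, 0.0444 and 0.253 CPM in young libraries (4.81 ± 1.36, or 0.27 with the covariate). Of 19 tested junction genes, 8 were higher and 11 lower (median -0.12), with 1 separated each way (5.26%, against 9.28% upward and 9.23% downward). Tjp1, which encodes the scaffold ZO-1, was at 91.3, 62.6 and 60.9 CPM in old and 95.98, 102 and 175 CPM in young libraries (-0.796 ± 0.304, or -0.23 with the covariate), and the channel gene Panx1 at 12.7, 16.4 and 21.2 CPM in old and 10.3, 12.3 and 4.45 CPM in young libraries (0.89 ± 0.43, or 0.48 with the covariate).

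**Figure D5:**
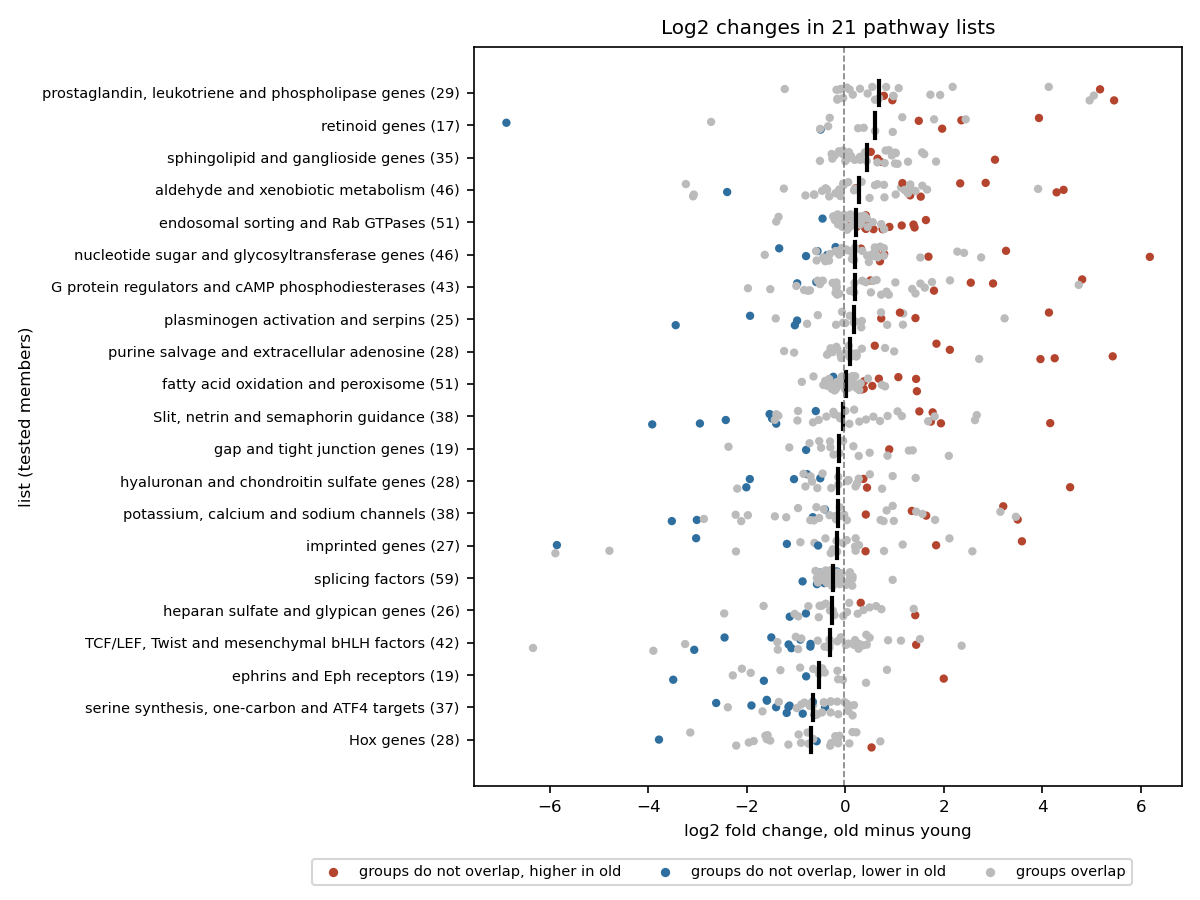
Log2 fold change of old over young (horizontal) for each tested member of 21 lists (rows, with the number tested), with a black bar at each list median; red and blue points have groups that do not overlap, higher or lower in old. Medians run from 0.69 for prostaglandin genes to -0.70 for Hox genes, and the serine and splicing rows hold blue points and no red ones.

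Of the 16 marrow stroma markers, 9 were higher and 7 lower (median log2 change 0.10, or -0.13 on the TPM scale relative to all genes). Of these, 2 were separated upward (12.5%, against 9.28% of all genes) and 0 downward (against 9.23%). Vcam1, an adhesion molecule for blood-forming cells, was at 92.9, 214 and 116 CPM in old and 25.4, 31.9 and 81.5 CPM in young libraries (1.61 ± 0.55, or 1.01 in old replicate 2 alone). Lepr was the other separated marker. Kitl, which encodes stem cell factor, was at 78.5, 71.9 and 146 CPM in old and 73.7, 52.8 and 37.6 CPM in young libraries, and old replicate 8 lay just below young replicate 2. Col1a2, of collagen I, was at 5874, 3411 and 2000.0 CPM in old and 9824, 4115 and 19870.0 CPM in young libraries and overlapped.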

How the data were processed

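RNA was extracted with Trizol from cultured marrow MSCs, per the labels' protocols. Per the file headers, the authors deposited for each gene and library its TPM, its FPKM and an estimated count. Estimated counts as deposited need not be whole, and 67.6% were whole to within 0.005. The FPKM deposited by the authors are scaled for length and depth and were not used, and the TPM deposited by the authors served only as another scaling. The build mm39 and the tools BWA, Bowtie2 and RSEM appear in the submitters' processing notes without roles or versions. Whether counting used strand is not stated, so reads of paralogs and antisense genes may be shared. The table gives no coordinates, and promoters come from RefSeq on GRCm38.p6.

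Estimated counts were rounded and filtered with filterByExpr (minimum count 10, total 15), which kept 13547 of 18908 genes. They were scaled by TMM and tested with edgeR 4.0.16 (quasi-likelihood, Benjamini-Hochberg over all tested genes, adjusted p under 0.05) in R 4.3.3. The code was first checked on counts simulated with far less spread between libraries than these data have. That check therefore does not measure recovery or error in these libraries. Library totals of about 20595378 counts make counting error small beside library spread for well-expressed genes, but not for values of a few counts. Such low values include Rgs14 in young replicate 4 (0.04435 CPM) and Lepr in young libraries (5 to 7 counts), and their changes are uncertain. Floors of 3 counts cover counting error only. Alternatives were DESeq2 1.42.0, limma-voom (limma 3.58.1), no filter, an adjusted p under 0.1, other scalings, leaving out libraries and the macrophage covariate. The comparison and the lists were chosen with earlier results of these data known. List medians on the TPM scale, and non-overlap counts without single libraries, were added after seeing the data.

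Named genes are, among separated genes of above-median level outside macrophage, osteoblast and senescence markers and without Gm, Rik or LOC names, the 12 smallest edgeR p and the 8 widest gaps per direction, where the gap is log2 of the lowest CPM of the higher group over the highest of the lower group, with 0.5 added to each. To these come up to 4 members of each list by p, 14 genes named always and the 8 smallest DESeq2 adjusted p per direction. Other list members were named after their values were seen. A few genes that this rule or the lists take in are not reported here.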

Additional observations from a re-analysis of the deposited data

How the results depend on the processing

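No paired analysis was possible because the groups share a single replicate number, 2. That reason covers pairing by the labels only. The closest second-table libraries were old vehicle 1, 3 and 5 for old replicates 2, 8 and 9. For young replicates 2, 4 and 5 they were old melatonin 1, 3 and 5. Those numbers would pair old replicates 2, 8 and 9 with young replicates 2, 4 and 5, in that order. No fit with such pairs was run, so its effect on the results was not tested. The count of genes at an adjusted p under 0.05 was 0 in each direction by edgeR under every alternative run except the tool, since DESeq2 gave 664 higher and 204 lower. Genes at an unadjusted p under 0.05 numbered 1194 higher and 671 lower. They numbered 742 higher by limma-voom, 121 higher and 166 lower with the macrophage covariate, and 165 higher and 103 lower without old replicates 8 and 9, which leaves 1 old library assumed to vary like the young ones. As single libraries were left out, they ran from 683 (without old replicate 9) to 1820 (without old replicate 2) higher and from 269 to 1040 lower with the same libraries. Genes without overlap numbered 731 higher and 1911 lower on the deposited TPM. They ran from 1508 to 2946 higher and from 1540 to 2586 lower as a library was left out, where fewer libraries must separate, with both highest counts without old replicate 2.

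List medians that moved by more than 1 SD of the list's mean level between replicates were, with the macrophage covariate, those of prostaglandin (0.003), sphingolipid (0.001), retinoid (0.117), endosomal (0.065), splicing (0.022), G protein (-0.212), hyaluronan (0.086) and junction genes (0.121), and without old replicates 8 and 9 those of sphingolipid (0.13) and endosomal genes (0.092). Other medians moved by less than that SD but by over 1.5 times. With the covariate these included Hox (-0.338), mesenchymal factor (-0.147), ephrin (-0.349), imprinted (0.014), channel (0.021), aldehyde (0.092), nucleotide sugar (0.074) and plasminogen genes (0.367), and without old replicates 8 and 9 prostaglandin (0.292), G protein (0.01), hyaluronan (0.023), junction (0.04), Hox (-0.315) and imprinted genes (0.125). The endosomal median was 0.076 on the TPM scale, and that of Hox genes -0.171 by limma-voom. As single libraries were left out, medians ran from -0.131 to 0.187 for Slit and semaphorin, -0.816 to -0.037 for Hox, -0.708 to -0.087 for mesenchymal factor, 0.312 to 0.996 for retinoid, -0.312 to 0.105 for hyaluronan and -0.382 to 0.065 for junction genes. The serine and ATF4 median stayed between -0.877 and -0.535 in every setting run.

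Of 121 named genes, many of them chosen as separated, 121 kept their direction by DESeq2, 119 by limma-voom, 120 without old replicates 8 and 9 and 114 with the macrophage covariate. The genes that turned with the covariate were Alox5ap (-0.23), Has2 (0.99), Hexa (-0.14), Mgat4a (-0.36), Pla2g15 (-0.003), Ptgs2 (-1.16) and Tbxas1 (-0.71), and the cause was not tested. By limma-voom Dlk1 (-0.50) and Has2 (0.34) turned. Ptgs2 gave -1.26 without old replicates 8 and 9. As single libraries were left out, Dlk1 ran from -1.66 to 0.56, Has2 from -1.45 to 0.85 and Ptgs2 from -0.51 to 0.71.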

Other observations

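The following genes were picked from the lists after their values were seen and are given as values only. Serping1, which encodes the inhibitor of complement C1, was at 68.3, 186 and 789.5 CPM in old and 57.7, 0.754 and 0.9599 CPM in young libraries, for a log2 fold change of 4.13 ± 1.93 with no overlap. Of the flavin monooxygenases, which oxidise drugs and amines, Fmo2 was at 13.3, 7.500 and 119 CPM in old and 6.13, 0.177 and 0.152 CPM in young libraries and Fmo1 at 11.2, 4.44 and 35.6 CPM in old and 3.899, 2.13 and 4.14 CPM in young libraries, both without overlap. Fmo5 was at 4.31, 6.94 and 10.1 CPM in old and 6.36, 1.77 and 12.4 CPM in young libraries and overlapped. With the macrophage covariate the changes of Serping1, Fmo2 and Fmo1 were 0.58, 1.45 and 1.39. Pth1r, the receptor of parathyroid hormone on osteoblast-lineage cells, was at 10.9, 6.68 and 16.5 CPM in old and 6.45, 1.64 and 1.67 CPM in young libraries (1.80 ± 0.68, or 0.96 with the covariate). Kcnma1, a calcium-activated potassium channel, was at 2.27, 0.918 and 1.94 CPM in old and 4.64, 4.61 and 32.4 CPM in young libraries (-3.01 ± 0.94, or -1.45 without young replicate 5). Plat, the tissue plasminogen activator, was at 38.1, 7.602 and 4.81 CPM in old and 61.2, 65.4 and 66.4 CPM in young libraries (-1.93 ± 0.78, or -0.58 with the covariate), so it was lower in every old library. None of these genes had an edgeR adjusted p under 0.315.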
